A study of Mus musculus with 12 samples.

Results

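The messages of 9 immediate-early genes, Fos, Jun, Junb, Jund, Egr1, Ier2, Atf3, Btg2 and Nr4a1, were followed in triceps brachii, a forelimb muscle, of 12 male C57/BL6 mice. Their rows were found by gene symbol, and all 9 were among the 10187 genes of the RNA-seq table. The study crossed wheel running with loss of myostatin, a secreted inhibitor of muscle growth, to ask how activity and genotype act on muscle gene expression together. The 4 groups had 3 mice each. Inactive mice were wild-type (IW) or had reduced myostatin (IM), and mice with a wheel were likewise wild-type (AW) or had reduced myostatin (AM). Myostatin-reduced mice carried Mstn genes with loxP sites around exon 3, which Cre recombinase removed after tamoxifen. Every mouse, wild-type included, ate chow with 0.025% tamoxifen for 6 weeks in all from 4 months of age, and the promoter that drives Cre is not given in the sources used here. From 6 months of age the 6 active mice lived alone in cages with a running wheel for 12 weeks, and any effect of single housing cannot be told apart from that of running. Active mice of both genotypes were matched by the study for how much they ran. The hour of sampling and the time since the last run are likewise not given in the sources used here. Whole muscle was sampled, so fewer cells of a type and less RNA per cell cannot be told apart.

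Immediate-early genes are transcribed within minutes of a stimulus, without prior protein synthesis, and their messages decay quickly. Contraction, stretch, injury, growth factors and stress hormones are known to induce them in skeletal muscle, through kinase cascades that act on the serum response factor with its partners and on the cAMP response element-binding protein. Most of their products are transcription factors that control a later wave of genes. Fos, Jun, Junb and Jund encode subunits of AP-1, a dimeric factor of the leucine zipper class, in which Fos must pair with a Jun protein to bind DNA. Atf3 encodes a stress-induced factor of the related ATF/CREB family. Egr1 encodes a zinc finger factor, Nr4a1 an orphan nuclear receptor that controls glucose use genes in muscle, Btg2 an antiproliferative co-regulator of the BTG/TOB family, and Ier2 a small nuclear protein.

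Values were normalized read counts, hereafter normalized reads, which the authors scaled between mice and did not divide by gene length. Mstn was between 79.7 and 138 normalized reads in the 6 wild-type mice and between 8.70 and 21.6 in the 6 myostatin-reduced mice, so every library matched its genotype label. Summed values were 927958 to 1080140 per mouse, from an estimated 9023561 to 12183769 reads, and 3 reads corresponded to 0.231 to 0.316 normalized reads. Every member was above that floor in every mouse, and this floor covers counting error only. Over the 12 mice 7247 genes had a mean of 10 or more, among them 5 members (Jun, Jund, Egr1, Btg2 and Nr4a1). Fos, Junb, Ier2 and Atf3 had means under 10 and their tests were taken from the same model fitted to all 10187 genes. Egr1 reached the minimum only through IW mice, since its mean over the other 9 mice was 7.50.

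The promoters of Btg2, Atf3 and Fos are shown because Btg2 and Atf3 differed between IM and IW mice and Fos varied widely among mice. Each sequence is the 250 bases before the annotated start of the RefSeq table (GRCm38.p6), 5′ to 3′ on the strand of the gene, and was found exactly once in build NCBIM37 (mm9), whose coordinates are given. Capitals mark the cAMP response element TGACGTCA or its shorter core, CGTCA or on the opposite strand TGACG. Btg2 lies at chr1:135975733-135975982 on the minus strand, Atf3 at chr1:193007213-193007462 on the minus strand and Fos at chr12:86814590-86814839 on the plus strand.
Btg2: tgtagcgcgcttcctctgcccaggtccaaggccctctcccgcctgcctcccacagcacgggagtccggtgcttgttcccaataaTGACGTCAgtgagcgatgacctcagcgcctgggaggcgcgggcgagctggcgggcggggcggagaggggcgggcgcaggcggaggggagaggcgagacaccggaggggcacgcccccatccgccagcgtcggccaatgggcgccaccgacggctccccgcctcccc
Atf3: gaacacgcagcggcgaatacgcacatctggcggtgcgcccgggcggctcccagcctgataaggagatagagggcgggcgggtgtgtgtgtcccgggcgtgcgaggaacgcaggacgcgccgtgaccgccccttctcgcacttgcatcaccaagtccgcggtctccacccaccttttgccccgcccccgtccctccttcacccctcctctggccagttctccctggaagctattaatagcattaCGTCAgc
Fos: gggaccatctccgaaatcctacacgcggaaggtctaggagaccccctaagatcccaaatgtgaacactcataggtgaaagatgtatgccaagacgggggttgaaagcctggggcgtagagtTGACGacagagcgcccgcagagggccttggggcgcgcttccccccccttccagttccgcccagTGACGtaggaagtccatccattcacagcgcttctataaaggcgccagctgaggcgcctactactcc

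The full element in Btg2 began 166 bases before the start, the core of Atf3 7 bases before it, and the cores of Fos 129 and 66 bases before it. The GENCODE span of Atf3 given below begins within this promoter, so by that annotation its core lies inside the gene. Of the 9 members, 7 had a promoter in the table and Egr1 and Ier2 had none. On both strands of the 250 bases before the start, TGACGTCA was found in 1 of 7 members (Btg2) and in 1.55% of 32851 promoters. The core CGTCA, which the full element contains, was found in 5 of 7 (Btg2, Atf3, Junb, Fos and Nr4a1) and in 17.8% of all promoters. The EGR site GCGTGGGCG or GCGGGGGCG was in 1 of 7 (Nr4a1) and in 3.06% of all. The AP-1 site TGACTCA, read on either strand, was in 0 of 7 members and in 4.46% of all promoters in the same window. The CArG box bound by the serum response factor was in 0 of 7 and in 1.47%. Sites farther from the start were not searched, so these counts do not show that a gene lacks them.

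Levels of the members were set against each other per kilobase of annotated exon (GENCODE vM1, build NCBIM37). On this scale Nr4a1 was the highest, with 53.9 normalized reads per kilobase as the mean of the 12 mice and 39.1 in its lowest mouse. Jun followed at 23.1, with every mouse between 19.1 and 27.3, below every value of Nr4a1. Jund was at 8.91 (7.68 to 11.03) and Btg2 at 6.48 (3.57 to 12.3), and their ranges overlapped. Fos was at 3.604, Egr1 at 3.52, Junb at 3.34, Atf3 at 3.30 and Ier2 at 2.73, in overlapping ranges of which the widest were those of Fos (1.05 to 10.8) and Egr1 (1.02 to 11.2). The receptor gene and Jun therefore stood apart from the other members in every mouse, while the order among the lower ones changed from mouse to mouse. Nr4a1 lies at chr15:101097277-101105223 (plus strand, 7 exon blocks) and Jun at chr4:94715725-94718913 (minus strand, 1 exon block). Jun overlaps BC042782 and Jund overlaps Gm11175, each on the opposite strand, and Egr1 overlaps Gm17507 likewise. Whether the counting used strand is not stated, so reads of these pairs cannot be told apart.

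**Figure D1:**
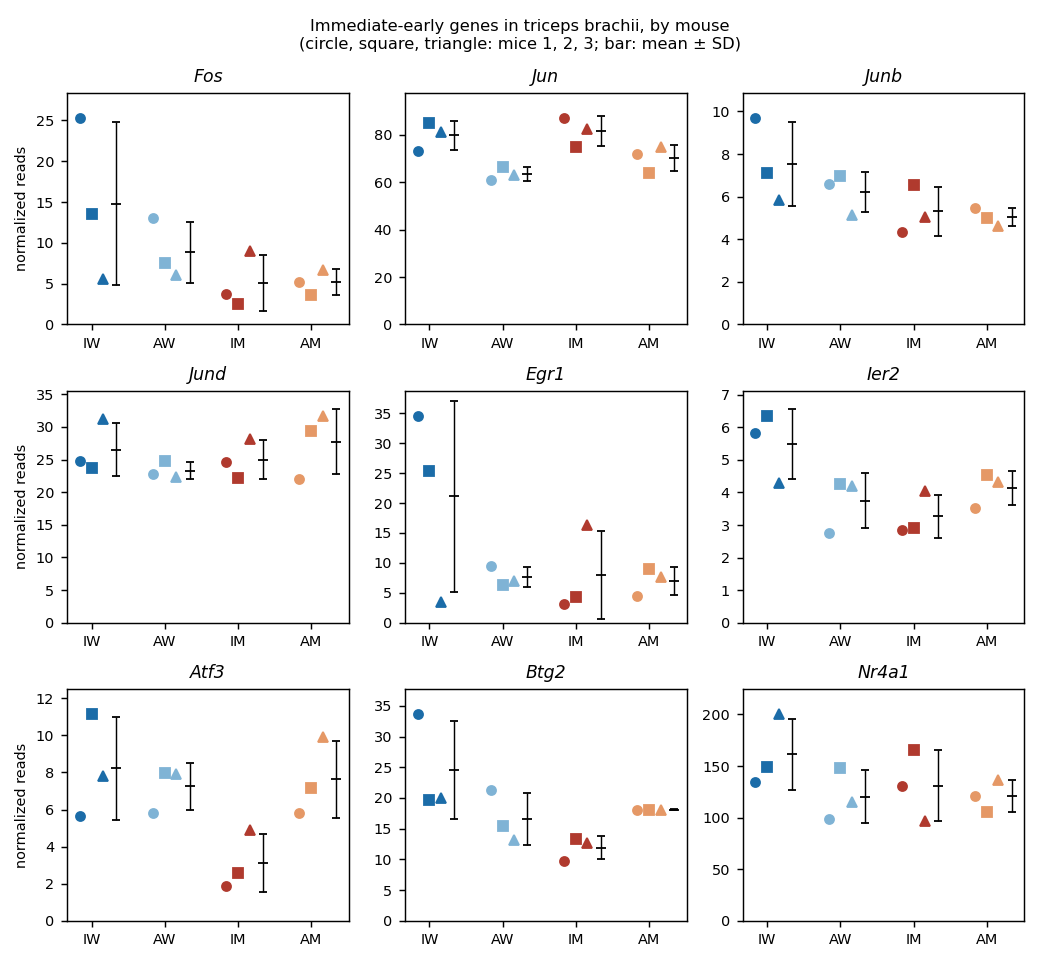
Normalized reads of the 9 immediate-early genes (vertical axes, linear and starting at 0) in each of the 12 mice by group; circles, squares and triangles are mice 1, 2 and 3 and bars are the group mean ± SD (n = 3). Btg2 and Atf3 were lower in every IM mouse than in every IW mouse, Jun was lower in both active groups on average, and Fos and Egr1 ranged about 10-fold among mice.

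The comparison of IM with IW mice asked what myostatin loss changed in mice without a wheel, and Btg2 and Atf3 were lower in IM mice. The counts were 1 of the 5 members with a mean of at least 10, where 2.51% of all tested genes were called, and 1 of the other 4, where 1.91% of all 10187 genes were called. In 8 of the 9 members the IM mean was below the IW mean on the log2 scale, with a median change of -0.60 over the members and of -0.0046 over all genes. An unadjusted p under 0.05 was reached by 5 members, against 15.9% of all genes.

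Btg2 (chr1:135971747-135975697, minus strand, 2 exon blocks) was at 33.7, 19.7 and 20.04 normalized reads in IW mice 1, 2 and 3 and at 9.80, 13.3 and 12.7 in IM mice. It was at 21.3, 15.5 and 13.1 in AW mice and at 17.97, 18.1 and 18.1 in AM mice. Every IM mouse was below every IW mouse, 1 AW mouse fell among the IM mice, and the AM mice lay between the groups of inactive mice. The IM mean was 0.487 times the IW mean, and Btg2 fell by 0.95 on the log2 scale (SE 0.201, 95% interval -1.38 to -0.51, limma with Benjamini-Hochberg adjusted p = 0.0345). This call was lost without IW1 (limma adjusted p = 0.132), IW3 (0.0543), IM1 (0.130), IM2 (0.0796) or IM3 (0.103), while the change stayed between -1.08 and -0.70. IW1 was the highest of the 12 mice, and without it the change was -0.70.

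Atf3 (chr1:192994175-193007219, minus strand, 4 exon blocks) was at 5.66, 11.2 and 7.83 normalized reads in IW mice and at 1.90, 2.55 and 4.87 in IM mice. AW mice had 5.80, 7.99 and 7.94 and AM mice 5.80, 7.16 and 9.90. The 3 IM mice were the lowest of all 12, and the other groups overlapped each other. The IM mean was 0.378 times the IW mean, and Atf3 fell by 1.19 on the log2 scale (SE 0.271, 95% interval -1.77 to -0.60, limma adjusted p = 0.0416 over 10187 genes). This call was lost without IW1 (limma adjusted p = 0.0632), IW2 (0.105), IW3 (0.105), IM1 (0.168), IM2 (0.131), AW2 (0.0610) or AW3 (0.0608). It was also lost after quantile normalization (limma adjusted p = 0.0549) and with the 2 groups fitted alone (0.0508), and the change was between -1.48 and -0.97 across the fits with a mouse left out.

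Ier2 (chr8:87185230-87186751, minus strand, 1 exon block) was also lower in every IM mouse, at 2.85, 2.91 and 4.04 normalized reads, than in every IW mouse, at 5.84, 6.36 and 4.28. Its change was -0.60 (SE 0.183, limma adjusted p = 0.118) and passed only with sample weights (0.0418) among the alternatives run. Complete separation of this kind, all IM below all IW mice, held for 3 of the 9 members (Ier2, Atf3 and Btg2) and for 11.8% of all genes. Fos changed by -1.30 (SE 0.463, limma adjusted p = 0.177), Egr1 by -1.15 (SE 0.671, 0.403), Junb by -0.43 (SE 0.179, 0.259) and Nr4a1 by -0.31 (SE 0.201, 0.455), none past the threshold. Jun and Jund changed by 0.032 and -0.082 in this comparison, with 95% intervals of -0.15 to 0.21 and -0.38 to 0.22.

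Markers of other cells moved with this comparison. The summed level of the 10 endothelial markers, all in the table and none at 0, was 310 to 331 normalized reads in IM mice against 348 to 449 in IW, 350 to 593 in AW and 413 to 666 in AM mice. The defining endothelial genes Pecam1 and Cdh5 were at 42.3 to 92.7 and 73.0 to 148 normalized reads over the 12 mice. The 10 skeletal muscle fibre genes summed to 241962 to 253899 in IM mice, above 191049 to 227160 in IW mice, and the 11 slow fibre genes to 78.3 to 112 in IM mice against 94.3 to 1370 in IW mice. Summed levels overlapped between IM and IW mice for fibroblast (7 of 8 markers in the table, 599 to 738 against 567 to 721), macrophage (8 of 10, 73.9 to 120 against 77.7 to 82.5) and smooth muscle and pericyte genes (6 of 7, 144 to 161 against 147 to 218). They overlapped also for adipocyte (5 of 6, 105 to 131 against 124 to 178), satellite cell (2 of 5, 26.6 to 33.5 against 31.6 to 38.2), Schwann cell (4 of 5, 28.9 to 51.1 against 37.4 to 74.7) and red blood cell genes (1 of 5, 2.11 to 5.27 against 3.86 to 7.19). Endothelial cells and the fibre types can express immediate-early genes, and their part in the lower Btg2 and Atf3 of IM mice was not tested. Of the 4 neutrophil markers listed, 0 were among the genes analysed here.

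In active mice the same comparison of genotypes, AM with AW, gave 0 calls among the 9 members in limma, and 0 at an unadjusted p under 0.05, which 10.8% of all genes reached. Of all genes, 0.207% with a mean of at least 10 and 0.196% without a minimum were called. Btg2 changed by 0.14 (95% interval -0.30 to 0.58) and Atf3 by 0.049 (-0.54 to 0.63), so these intervals did not reach the decreases fitted for Btg2 and Atf3 in inactive mice. Fos changed by -0.64 (-1.64 to 0.36) and Egr1 by -0.13 (-1.59 to 1.32), intervals wide enough to hold changes of either sign.

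The interaction, the genotype change of active mice minus that of inactive mice, addressed whether these differ. It was above 0 in all 9 members, with a median of 0.66 on the log2 scale against -0.0036 over all genes. The 9 values share the same IW mice, and IW had the highest of the 4 group means in 7 of the 9 members, against 20.0% of all genes. In limma 0 members were called, and 0% of all genes were called with or without the minimum. An unadjusted p under 0.05 was reached by 3 members, against 4.46% of all genes. These were Btg2 (1.09, SE 0.285, limma adjusted p = 0.890), Atf3 (1.24, SE 0.383, limma adjusted p = 0.900) and Ier2 (0.73, SE 0.258, limma adjusted p = 0.900). The interaction was 1.02 for Egr1 (SE 0.948) and 0.66 for Fos (SE 0.655), and did not exceed the spread between mice. An effect of activity on the genotype change was therefore not shown for any member after adjustment.

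**Figure D2:**
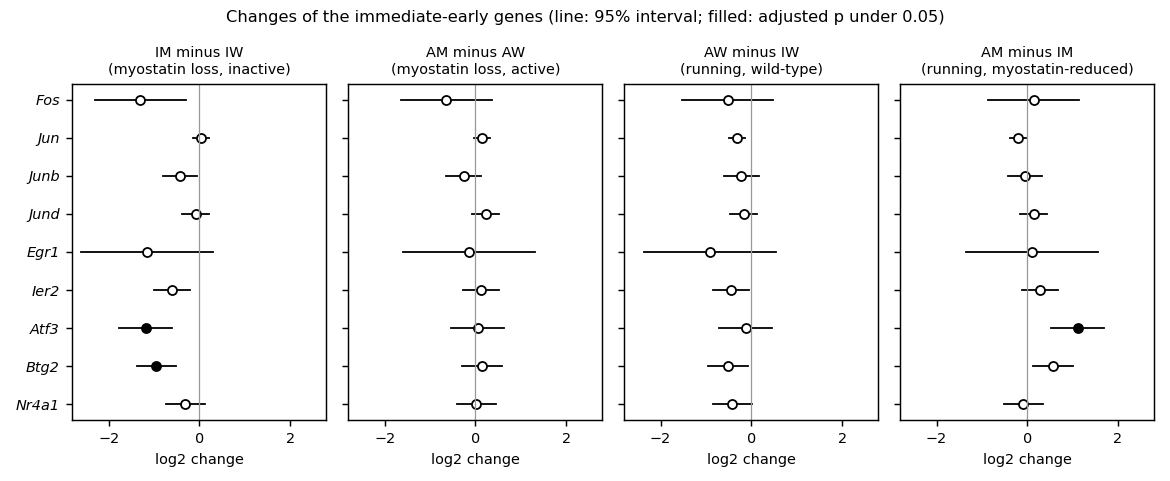
Log2 change of each immediate-early gene (horizontal axis; points with 95% intervals from limma) for IM minus IW, AM minus AW, AW minus IW and AM minus IM; filled points passed an adjusted p of 0.05. Only Btg2 and Atf3 in IM minus IW and Atf3 in AM minus IM are filled, and the intervals of Fos and Egr1 are the widest.

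The comparison of AM with IM mice asked what running changed when myostatin was reduced, and Atf3 was higher in active mice. Its values in AM mice, 5.80, 7.16 and 9.90 normalized reads, were all above those of IM mice, 1.90, 2.55 and 4.87. Atf3 rose by 1.11 on the log2 scale (SE 0.271, 95% interval 0.52 to 1.69, limma adjusted p = 0.0330 over 10187 genes), and the AM mean was 2.45 times the IM mean. The call was lost without IM1 (limma adjusted p = 0.131), IM2 (0.108), AM2 (0.115) or AM3 (0.0967). It uses the same IM mice as the comparison of IM with IW above. Atf3 was 1 of the 4 members with a mean under 10, against 5.74% of all genes called without a minimum, and 0 of the 5 above it were called, against 7.84% of genes. Btg2 changed by 0.57 (95% interval 0.13 to 1.01, limma adjusted p = 0.0987), with every AM mouse above every IM mouse, and it passed without IW1 (limma adjusted p = 0.0439) and with the 2 groups fitted alone (0.0294). Sums of 5 marker lists separated AM from IM mice without overlap. Endothelial sums (413 to 666 in AM mice), slow fibre sums (117 to 1343), smooth muscle and pericyte sums (186 to 268) and adipocyte sums (135 to 230) were above those of IM mice given above. Skeletal muscle fibre sums (178175 to 225953) were below them. Their part in the Atf3 difference was not tested.

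In wild-type mice running gave 0 calls among the 9 members in AW against IW, where 0.0276% of genes with a mean of at least 10 and 0.0196% of all genes were called. The mean change was below 0 in all 9 members, with a median of -0.42 against 0.0045 over all genes, and 3 members (Jun, Ier2 and Btg2) had an unadjusted p under 0.05 in limma, against 12.8% of all genes. Jun passed here with sample weights (limma adjusted p = 0.0435, against 0.113). Atf3 changed by -0.13 in this comparison (95% interval -0.71 to 0.46), while it rose in myostatin-reduced mice. That difference between genotypes is the interaction of 1.24 given above, which had a limma adjusted p of 0.900. The comparison of AM with IW mice, which changes both factors, also gave 0 calls, against 2.97% and 2.17% of genes with and without the minimum, and 2 members (Fos and Junb) had an unadjusted p under 0.05 in limma, against 17.7% of all genes.

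Over both genotypes, active against inactive mice, Jun was lower in active mice. Jun was at 73.2, 84.9 and 80.9 normalized reads in IW mice and at 60.8, 66.5 and 62.9 in AW mice. IM mice had 87.2, 74.8 and 82.5 and AM mice 71.7, 64.0 and 74.8. All AW mice were below all IW mice, and AM and IM mice overlapped only through AM mouse 3 (74.81) and IM mouse 2 (74.75). Jun fell by 0.27 on the log2 scale (SE 0.0590, 95% interval -0.40 to -0.14, limma adjusted p = 0.0114), and with each mouse left out in turn the limma adjusted p was between 0.00839 and 0.0341. The Jun difference of active from inactive mice was -0.32 in wild-type mice (95% interval -0.50 to -0.14, limma adjusted p = 0.113) and -0.21 in myostatin-reduced mice (-0.39 to -0.032, limma adjusted p = 0.131), neither past the threshold by itself, with an interaction of 0.11 (SE 0.118). Jun was the 1 call among 5 members with a mean of at least 10, where 14.5% of all genes were called, and 0 of the other 4 members were called, where 10.7% were. The share of members called was thus near that of genes in general. Endothelial sums were 310 to 449 in inactive and 350 to 666 in active mice, muscle fibre sums 191049 to 253899 and 166233 to 225953, both overlapping, and their part in the lower Jun was not tested.

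Atf3 changed by 0.49 with activity (SE 0.192, limma adjusted p = 0.12), Nr4a1 by -0.25 (SE 0.142, 0.251) and Egr1 by -0.41 (SE 0.474, 0.584), none past the threshold. Atf3 passed for activity with sample weights (limma adjusted p = 0.0418), with the mouse number as a block (0.0402) and without IM3 (0.0465). Nr4a1 was at 134.9, 148.6 and 200.6 normalized reads in IW mice, 131.0, 165.1 and 96.6 in IM mice, 98.3, 148.0 and 115.0 in AW mice and 121.2, 105.5 and 136.7 in AM mice. The 4 groups overlapped, although the highest mouse was inactive and wild-type. Junb, the AP-1 subunit at chr8:87500811-87502617 (minus strand, 1 exon block), was at 9.71, 7.10 and 5.84 in IW mice, 4.32, 6.55 and 5.05 in IM mice, 6.58, 6.95 and 5.16 in AW mice and 5.46, 5.01 and 4.62 in AM mice. Every AM mouse was below every IW mouse for Junb, and the other groups overlapped. Jund (chr8:73221638-73224515, plus strand, 1 exon block) stayed between 22.1 and 31.7 normalized reads in all 12 mice, with group means of 23.3 in AW, 24.95 in IM, 26.5 in IW and 27.7 in AM mice that did not differ beyond the spread between mice. The 95% interval of its activity change was -0.23 to 0.19.

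Over both activity levels, myostatin-reduced against wild-type mice, 0 members were called in limma, where 5.78% and 4.22% of genes were called with and without the minimum. There were 4 members with an unadjusted p under 0.05. They were Fos at -0.97 (SE 0.327, limma adjusted p = 0.119), Atf3 at -0.57 (SE 0.192, limma adjusted p = 0.118), Btg2 at -0.40 (SE 0.142, limma adjusted p = 0.118) and Junb at -0.34 (SE 0.126, limma adjusted p = 0.149). Of all genes, 19.6% were below that p. Atf3 passed for genotype with sample weights (limma adjusted p = 0.0490) and with the mouse number as a block (0.0398). Fos passed the threshold in the fit without IW3, with a change of -1.23 (limma adjusted p = 0.0333), and its adjusted p was up to 0.255 in the other fits with a mouse left out.

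Fos and Egr1 differed most among mice of the same group. Fos (chr12:86814840-86818223, plus strand, 4 exon blocks) was at 25.3, 13.5 and 5.53 normalized reads in IW mice, 3.79, 2.46 and 9.0 in IM mice, 13.1, 7.47 and 6.03 in AW mice and 5.21, 3.62 and 6.73 in AM mice. Egr1 was at 34.6, 25.3 and 3.44 in IW mice, 3.16, 4.27 and 16.4 in IM mice, 9.52, 6.33 and 6.90 in AW mice and 4.37, 9.01 and 7.60 in AM mice. IW1 was the highest of the 12 mice for both genes, IW3 was the lowest of its group for both, and IM3 was the highest of its group for both. The ratio of highest to lowest within IW mice was 10.1 for Egr1 and 4.58 for Fos, against 1.16 for Jun. The SD within groups was 1.02 on the log2 scale for Egr1 and 0.71 for Fos, ranks 16 and 38 of 10187 genes from the highest, where the median gene had 0.142. For Atf3 it was 0.40 (rank 242), for Nr4a1 0.30 (rank 776) and for Jun 0.10 (rank 7669). Read counting alone would give an SD of about 0.139 for Egr1 and 0.146 for Fos at their levels.

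Mice with more Fos than their group mean tended to have more Egr1 and less Nr4a1, but no relation passed adjustment. Over the deviations of the 12 mice from their group means, Fos and Egr1 had a Pearson r of 0.83 (exact permutation within groups, two-sided p = 0.0332, adjusted 0.201 over the 8 relations with Fos) and a Spearman rho of 0.73 (exact permutation p = 0.0664, adjusted 0.265). Fos and Nr4a1 had an r of -0.72 (exact permutation p = 0.0502, adjusted 0.201) and a rho of -0.71 (exact permutation p = 0.0540, adjusted 0.265). The smallest p that the arrangements of mice allow is 0.000772. Without IW1 and IW3, the mice farthest from the median of the Fos deviations, r was 0.68 for Egr1 and -0.61 for Nr4a1. The range of Fos was narrower by this choice. IW2 was then alone in its group, so its deviation was nil by construction and IW mice no longer entered these r. The r with Fos was 0.64 for Btg2, 0.41 for Junb, 0.32 for Ier2, 0.11 for Atf3, -0.016 for Jun and -0.070 for Jund, with exact permutation adjusted p from 0.356 to 0.966. The corresponding rho was 0.50, 0.36, 0.23, 0.084, 0.098 and -0.063, with exact permutation adjusted p from 0.553 to 0.873. Without IW1 and IW3 the r of these 6 genes was between -0.13 and 0.46.

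**Figure D3:**
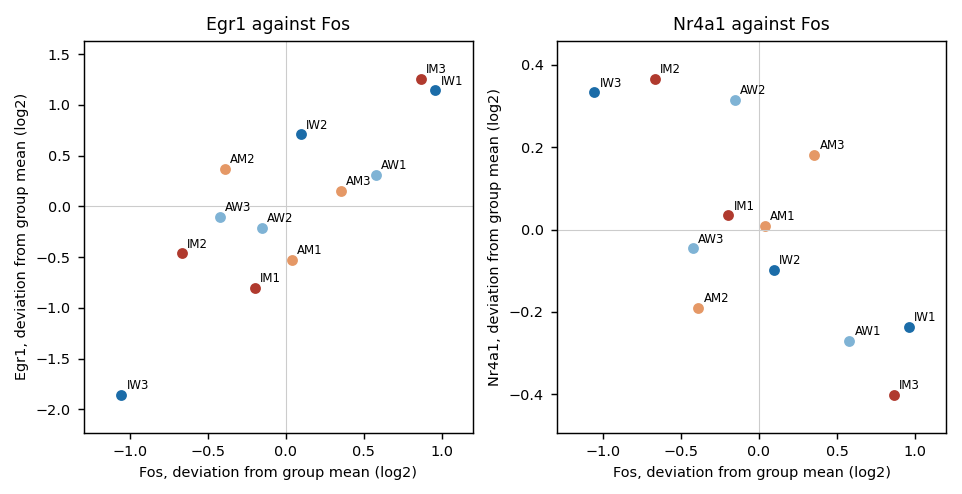
Deviation of Egr1 (left) and Nr4a1 (right) from the group mean against that of Fos, in log2(normalized reads + 1), for the 12 mice, coloured by group and labelled by mouse. IW1 and IM3 are at the upper right and IW3 at the lower left for Egr1 (r = 0.83), and the order is opposite for Nr4a1 (r = -0.72).

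**Figure D4:**
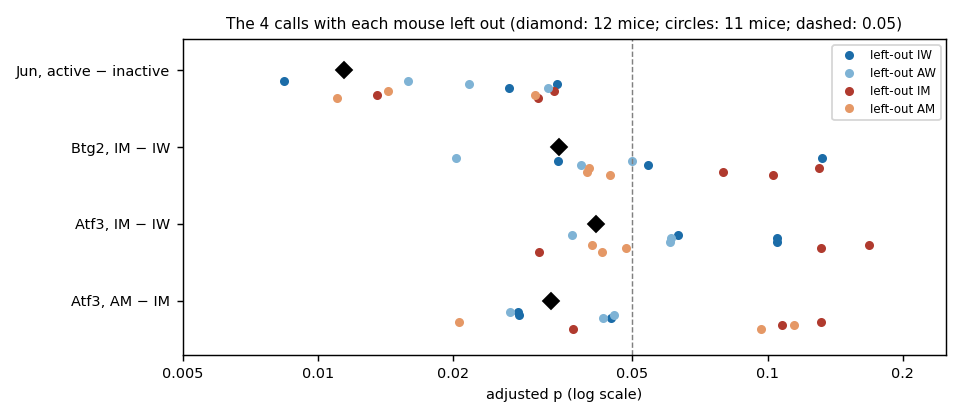
Limma adjusted p (horizontal axis, log scale) of the 4 calls among the immediate-early genes with all 12 mice (diamonds) and with each mouse left out (circles, coloured by the group of the left-out mouse; vertical offsets only separate points). All circles of Jun lie left of the dashed line at 0.05, and 5, 7 and 4 circles of Btg2 and Atf3 in IM minus IW and of Atf3 in AM minus IM lie right of it.

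Other genes of the pathway were counted from lists of 44 other immediate-early genes, 22 AP-1 and CREB family partners and 38 upstream kinases and factors, of which 23, 17 and 33 had a mean of at least 10. Of the 23 other immediate-early genes, 2 were lower and 0 higher with activity, Pim1, a kinase gene, at -0.41 (limma adjusted p = 0.0114) and Errfi1, a feedback inhibitor of epidermal growth factor receptors, at -0.29 (0.0446), where 14.5% of all genes tested were called. With genotype 1 was lower and 0 higher, Cyr61, a secreted matrix protein gene and known target of the serum response factor and of YAP, at -0.89 (SE 0.189, limma adjusted p = 0.0189), where 5.78% of all genes tested were called. The list's median change was -0.11 with activity and -0.056 with genotype, against -0.022 and -0.0049 for all genes tested, and it was -0.23 in AW against IW, against -0.011. In AW against IW, IM against IW, AM against AW and the interaction 0 of the 23 were called in limma, and 3, 9, 2 and 1 had an unadjusted p under 0.05, against 14.7%, 17.4%, 12.3% and 4.10% of all genes tested. Below that p were 11 of the 23 with genotype and 8 in AM against IW, against 22.5% and 20.1% of all genes tested, and 4 with activity and 1 in AM against IM, against 30.2% and 26.2%. In AM against IM 1 was lower (Pim1, -0.51, limma adjusted p = 0.0318), where 7.84% of all genes tested were called. In AM against IW 2 were lower, Cyr61 at -1.25 (limma adjusted p = 0.0283) and Pim1 at -0.52 (0.0477), where 2.97% were called.

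Cyr61 was at 33.6, 19.0 and 17.6 normalized reads in IW mice, 10.5, 8.64 and 17.0 in IM mice, 17.8, 15.5 and 18.2 in AW mice and 6.38, 11.6 and 9.33 in AM mice. IM3, the IM mouse with the highest Fos and Egr1, was the only myostatin-reduced mouse within the range of the wild-type mice. The genotype call of Cyr61 was lost without IM1 or AW3 (limma adjusted p up to 0.0522), and its call in AM against IW without IW1, IW2, AM1 or AM3 (up to 0.0815). The activity call of Pim1 held in all 12 such fits (limma adjusted p 0.00257 to 0.0303). Its call in AM against IM was lost without IM1, IM2, IM3, AM2 or AM3 (up to 0.124), and that in AM against IW in 10 of the 12 fits, the exceptions being those without AW1 and AW3 (up to 0.137). The call of Errfi1 was lost in 8 of the 12 fits, the exceptions being those without IW2, IM3, AW1 and AM3 (limma adjusted p up to 0.113).

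Of the 17 AP-1 and CREB family partners, 1 was higher and 1 lower with activity, where 14.5% of all genes tested were called. Ddit3, a stress-induced leucine zipper factor gene, rose by 0.50 (SE 0.127, limma adjusted p = 0.0229), and Atf7, a Jun partner gene, fell by 0.40 (SE 0.122, 0.0471). Ddit3 reached the minimum mean only through AW mice and Atf7 only through IW mice, the groups where each was highest, so they are no support for the list. Without a minimum, over all 10187 genes, the limma adjusted p for activity was 0.0234 for Ddit3 and 0.0497 for Atf7, and that of Ddit3 in AM against IM was 0.0364. Ddit3 was at 12.1, 9.83 and 8.91 normalized reads in IW mice, 8.08, 5.35 and 7.16 in IM mice, 13.5, 10.3 and 14.9 in AW mice and 11.8, 13.9 and 9.59 in AM mice. The 3 IM mice were the lowest of the 12, as they were for Atf3. Ddit3 was also higher in AM than in IM mice by 0.70 (limma adjusted p = 0.0353), the 1 call of the 17 where 7.84% of all genes tested were called, and its change in IM against IW was -0.53 (0.148). Outside activity and AM against IM, 0 of the 17 were called in limma in any contrast, where 0% (the interaction) to 5.78% (genotype) of all genes tested were called. An unadjusted p under 0.05 was reached by 3 of the 17 with genotype and 2 each in IM against IW and AM against IW, against 22.5%, 17.4% and 20.1% of all genes tested. It was reached by 5 with activity and 3 in AM against IM, against 30.2% and 26.2%, and by 1 in AW against IW and 0 in AM against AW and the interaction, against 14.7%, 12.3% and 4.10%. The list's median change was -0.11 with activity, 0.0025 with genotype and -0.044 in IM against IW, against -0.022, -0.0049 and 0.0019 for all genes tested. The activity call of Ddit3 was lost without IW2, IW3, IM2, AW3 or AM2 (limma adjusted p up to 0.0680) and its AM against IM call without IM1, IM2, IM3 or AM2 (up to 0.163). The call of Atf7 held only without IW3, IM3, AW1 or AM1 (limma adjusted p up to 0.108 in the others).

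Of the 33 upstream kinases and factors, 6 were lower and 2 higher with activity, where 14.5% of all genes tested were called in either direction. The median was -0.15 over the list and -0.022 over all genes tested. Lower genes included Camk2a, a calcium/calmodulin-dependent kinase gene, at -0.39 (limma adjusted p = 0.00545), its relative Camk2g at -0.25 (0.0137), the stress kinase gene Map2k4 at -0.23 (0.0171) and the serum response factor partner Elk1 at -0.28 (0.0353). Mapkapk2, a kinase gene downstream of p38, was higher by 0.16 (0.0224). With genotype 2 were higher, Crtc1, a CREB coactivator gene, at 0.38 (limma adjusted p = 0.0250) and Map2k1, a kinase gene of the ERK cascade, at 0.18 (0.0356), and 1 was lower, Rps6ka5, a kinase gene of CREB and histones, at -0.52 (0.0147), where 5.78% of all genes tested were called. In IM against IW mice Map2k1 was higher by 0.29 (limma adjusted p = 0.0345) and Mapkapk2 lower (-0.23, 0.0487), 2 of the 33 where 2.51% of all genes tested were called. In AM against IM mice Mapkapk2 was higher by 0.26 (limma adjusted p = 0.0184) and Camk2a lower (-0.44, 0.0275), 2 of the 33 where 7.84% were called. In AM against IW 1 of the 33, Rps6ka5, was lower (-0.70, limma adjusted p = 0.0286), where 2.97% were called. In AW against IW, AM against AW and the interaction 0 of the 33 were called in limma, with 8, 4 and 3 at an unadjusted p under 0.05, against 14.7%, 12.3% and 4.10% of all genes tested. Below that p were 17 with activity, 8 with genotype, 5 in IM against IW, 12 in AM against IM and 10 in AM against IW, against 30.2%, 22.5%, 17.4%, 26.2% and 20.1%.

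Mapkapk2 was at 332, 331 and 351 normalized reads in IW mice, 291, 282 and 288 in IM mice, 343, 359 and 348 in AW mice and 340, 360 and 335 in AM mice. The 3 IM mice were again the lowest of the 12. With each mouse left out, the activity calls of Camk2a and Camk2g and the genotype call of Rps6ka5 held in all 12 fits. The activity call of Map2k4 was lost without IW2 or AW2 (limma adjusted p up to 0.0505), that of Mapkapk2 without IW2, IM2, AW2, AW3 or AM2 (up to 0.0631), and that of Elk1 in 10 fits, all but those without IM1 and AW1 (up to 0.0924). The genotype call of Crtc1 was lost without IM1, IM3, AW2, AW3 or AM3 (up to 0.0698), and that of Map2k1 in 9 fits, all but those without IW2, AW1 and AM2 (up to 0.0942). In IM against IW the call of Map2k1 was lost without IW1, IW3, IM1, IM2, IM3 or AW3 (up to 0.153) and that of Mapkapk2 in 10 fits, all but those without AW1 and AM2 (up to 0.162). In AM against IM the calls of Mapkapk2 (up to 0.0910) and Camk2a (up to 0.131) were each lost without IM1, IM2, IM3 or AM2, and in AM against IW that of Rps6ka5 without IW1, IW2, IW3, AM2 or AM3 (up to 0.104).

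The genes whose pattern was most like that of the members were found from the mean of the standardised log2 values of the 5 members above the minimum mean, across the 12 mice. This mean was 0.66 to 0.81 in IW mice, -0.34 to 0.066 in IM, -0.77 to -0.21 in AW and -0.44 to 0.43 in AM mice, and it includes Egr1, which reached the minimum only through IW mice. Without Egr1, a choice made after seeing the data, it was 0.44 to 1.22 in IW, -0.14 to -0.13 in IM, -0.90 to -0.17 in AW and -0.34 to 0.56 in AM mice, and IW and AM mice overlapped. Fbxo31, a gene of a ubiquitin ligase subunit, had the highest Pearson r with it, 0.95, with group means of 81.1 normalized reads in IW mice, 71.9 in IM mice, 68.9 in AW mice and 72.1 in AM mice. ORF63 (r = 0.90) was at 28.7 in IW against 15.9 to 17.0 in the other groups, and Asb12 (r = 0.90) at 50.8 against 37.2 to 41.7. Fbxo21, Camk2b, Ttc7b, 3425401B19Rik, Clptm1, U2af2 and Kbtbd10 followed with r from 0.89 to 0.84. Without Egr1, Fbxo31 was again the first (r = 0.90), 5 of these 10 genes stayed among the first 10, and ORF63 fell to rank 20 (r = 0.78). The 12 mice share groups, libraries and scaling, and these r are a description of 10 genes picked from all those tested.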

How the data were processed

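Polyadenylated RNA of triceps brachii from 12 mice was sequenced by the authors as single-end reads, mapped with CASAVA to the mm9 genome and counted in RefSeq exons, per the labels and the study's methods (CASAVA version not given in the sources used here). The deposited signal is a normalized read count per gene, which the authors scaled to an equal trimmed mean over non-mitochondrial genes, with 5% trimmed. The worth of a single read, found as the spacing of low values, was 0.0770 to 0.105 and gave the depth. Of values under 20, 80.6% to 83.2% were whole multiples of this spacing, within 0.0051 normalized reads, so reads were not recovered and no count model was run.

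Groups and mouse numbers came from the sample titles. Log2(value + 1) was fitted with limma 3.58.1 in R 4.3.3 (a mean per group, 12 mice, eBayes with trend, two-sided, Benjamini-Hochberg over all genes fitted). The fit used genes with a mean of at least 10, and members below it were read from the fit of all 10187 genes. Changes on this scale understate those of low genes. Genes with an adjusted p under 0.05 were called. The steps were tested on simulated data. Relations with Fos used exact permutation of mice within groups in Python 3.11.15 with scipy 1.17.1.

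Named genes were all members, every called gene of the 3 pathway lists (for the kinase list the 8 with the smallest activity or genotype p), the 10 genes most like the members, Mstn, and the defining endothelial markers Pecam1 and Cdh5. Dusp1, Gadd45b and Per1 in the closing section were chosen outside this rule, after their values were seen. Zfp36 and Ccrn4l there were also outside this rule. The members and lists were chosen with earlier results of these data known. No source pairs the mice by number. Of the pairs of groups, only IM and AM had all 3 same-numbered correlations of deviations over 0.1 (0.171 to 0.322). A block on the number was still fitted to all groups together and read for every contrast. Outside AM against IM its results therefore rest on numbers that these correlations do not show to be pairs. Alternatives were a pseudocount of 0.5 or 4, a minimum mean of 0 or 50, quantile and median-ratio scaling, sample weights, robust eBayes, a replicate block, 2 groups fitted alone and leaving out each mouse. Positions came from GENCODE vM1 (NCBIM37) and promoters from RefSeq (GRCm38.p6).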

Additional observations from a re-analysis of the deposited data

How the results depend on the processing

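Refits covered the activity, genotype and interaction changes of the members, the called pairwise and list changes and the correlations with Fos. Of these 1069 values, 902 kept their direction and their side of the threshold, 144 lost a call, 6 gained one and 17 turned in direction. The turns were all of values that passed no test. With the 2 groups fitted alone 6 pairwise calls held and 6 were lost, Atf3 in IM against IW and otherwise calls of list genes. Among pairwise changes not called and so outside this count, 4 gained a call, Btg2 in AM against IM without IW1 and with the 2 groups alone, and with sample weights Ier2 in IM against IW and Jun in AW against IW. With sample weights the activity change of Jund became 0.022 and that of Btg2 -0.00709, and with quantile normalization that of Btg2 became -0.000491. Across the fits without a mouse the activity change was -0.46 to 0.048 for Fos, -0.068 to 0.058 for Jund and -0.065 to 0.15 for Btg2, and the interaction of Junb was -0.0012 to 0.32. Without IW1 and IW3 the r with Fos became 0.35 for Jun, -0.13 for Junb and 0.42 for Jund, and with a pseudocount of 0.5 that of Jun was 0.0029.

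Members called at a mean of at least 10 numbered 1 for activity and for IM against IW and 0 elsewhere. Without a minimum there were 2 in IM against IW and 1 in AM against IM, the latter being Atf3. In AM against IM the 2 groups alone gave 1, which was Btg2. A minimum of 50 left 0 in IM against IW, where Btg2, with a mean of 17.8, was no longer tested. Sample weights gave 1 in AW against IW. Leaving out a mouse gave 0 to 1 in IM against IW and in AM against IM, 1 for activity and 0 in the other contrasts. Genes called were 1051 for activity (1740 with sample weights, 552 to 1485 without a mouse), 419 for genotype (272 at a mean of at least 50, 180 to 579), 0 for the interaction (0 to 1), 568 in AM against IM (931 with sample weights, 85 to 1098), 182 in IM against IW (334 with sample weights, 23 to 216) and 215 in AM against IW (38 with the 2 groups alone, 58 to 309). There were 2 in AW against IW (39 at a mean of at least 50, 415 with sample weights, 1 with median-ratio scaling, 1 with robust eBayes, 0 with the 2 groups alone, 0 to 198 without a mouse) and 15 in AM against AW (7 at a mean of at least 50, 6 with the 2 groups alone, 4 to 15). The causes were not tested.

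Over 18 pairs of same-numbered mice the deviations correlated between -0.60 and 0.48, 9 of them over 0.1, and only IM and AM mice had all 3 over it. With a replicate block the call of Atf3 in AM against IM held (limma adjusted p = 0.0151), with 628 genes called there, and so did the calls of Pim1, Ddit3, Mapkapk2 and Camk2a in that comparison. In the same fit 5 calls were lost, Errfi1 (limma adjusted p = 0.0563) and Elk1 (0.0513) for activity, Map2k1 for genotype (0.0528), and Map2k1 (0.0567) and Mapkapk2 (0.0818) in IM against IW. Without a minimum the calls of Errfi1 for activity (limma adjusted p = 0.0517), Pim1 in AM against IW (0.0506) and Mapkapk2 in IM against IW (0.0581) were lost. With the block 98 genes were called in IM against IW, 0 in AW against IW and 9 in AM against AW, and Atf3 was called for activity (limma adjusted p = 0.0402) and genotype (0.0398). With sample weights Atf3 was called for activity (limma adjusted p = 0.0418) and genotype (0.0490). Changes of Fos and Egr1 in comparisons of 2 groups had an SE of 0.463 and 0.671 on the log2 scale.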

Other observations

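Some other immediate-early genes, chosen after their values were seen, also differed among mice of a group. Dusp1, a phosphatase gene that ends kinase signals to immediate-early genes, was at 79.2, 77.0 and 64.4 normalized reads in IW mice, 53.3, 47.5 and 77.2 in IM mice, 60.3, 54.9 and 53.4 in AW mice and 48.6, 47.0 and 51.3 in AM mice. IM3, the IM mouse with the most Fos and Egr1, was the only mouse outside IW above the lowest IW mouse for Dusp1. Gadd45b, a stress-induced gene, was at 18.4, 16.2 and 12.2 in IW mice, 9.38, 6.00 and 11.9 in IM mice, 10.9, 11.6 and 13.1 in AW mice and 6.80, 10.6 and 10.6 in AM mice. All mice outside IW but AW3 were below every IW mouse for Gadd45b. Zfp36 and Ccrn4l, looked at alongside, did not separate IW from IM mice. Zfp36 was at 14.28, 11.42 and 6.89 in IW mice, 10.33, 12.08 and 12.65 in IM mice, 7.44, 8.72 and 6.66 in AW mice and 7.22, 9.08 and 9.81 in AM mice. Ccrn4l was at 20.85, 23.52 and 29.64 in IW mice and 28.46, 28.92 and 19.93 in IM mice. The clock gene Per1, itself an immediate-early gene, was at 11.7, 11.2 and 36.4 in IW and 30.8, 48.9 and 21.7 in IM mice. IW3 had the most Per1 and the least Fos and Egr1 of its group, and IM3 the least Per1 and the most Fos and Egr1 of its group. Per1 was between 24.4 and 25.7 in AM mice and 7.27, 17.7 and 9.13 in AW mice. The hour at which each mouse was sampled is not given in the sources used here, and its part in these differences was not tested.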
